A study of Homo sapiens with 20 samples.

Results

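FOS, FOSB, FOSL1, FOSL2, JUN, JUNB, JUND, EGR1, ATF3 and IER2 are 10 of the 43366 genes counted by RNA-seq in clones of U2OS, an osteosarcoma cell line. They were taken by gene symbol, and all 10 passed edgeR's filter on low counts in every comparison. The set was chosen by its readout, because immediate-early genes had been seen to be lower after interferon γ (IFNγ) in these same libraries. Values of treated against untreated cells are therefore given as a description and carry no test. WT against ZBTB48 KO cells was not the stated ground of the choice, although earlier results of these data were known when it was made. The 4 groups were untreated WT, untreated ZBTB48 KO, IFNγ-treated WT and IFNγ-treated ZBTB48 KO, with 5 libraries each. Treatment was 250 U/ml IFNγ for 24 h, so an early wave of induction in the first hours was not sampled. Each replicate number is 1 clone, WT1, WT3, WT4, WT5 and WT6 for WT replicates 1 to 5 and KOC3, KOC5, KOD2, KOE2 and KOF4 for KO replicates 1 to 5, and a group samples the differences between clones of a single line.

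AP-1 is a family of transcription factors made of pairs of basic leucine zipper (bZIP) proteins. FOS, FOSB, FOSL1 and FOSL2 pair with JUN, JUNB or JUND, which can also pair among themselves, and the pairs bind the AP-1 site or the related cAMP response element (CRE). FOS, FOSB, JUN, JUNB, EGR1, ATF3 and IER2 belong to the immediate-early genes, whose transcription starts within minutes of a growth factor or stress signal without new protein synthesis. Their transcripts are short-lived, and ERK signalling through serum response factor is a main input to FOS and EGR1. FOS and JUN take their names from viral oncogenes, and FOS overexpression causes bone tumours in mice, so the family is long known in osteosarcoma biology.

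The promoters of FOS, FOSB, EGR1 and ATF3 are shown because they carry the elements by which immediate-early genes are usually recognised. The letters are the 150 bases before the RefSeq start on GRCh38.p14, 5′ to 3′ on the strand of the gene. The 4 windows lie at chr14:75278678-75278827 (+ strand) for FOS, chr19:45467846-45467995 (+) for FOSB, chr5:138465329-138465478 (+) for EGR1 and chr1:212565257-212565406 (+) for the upstream ATF3 start. Capitals mark TGACG, the core of the CRE, the CRE variant TGACATCA, the TATA box TATAAA and the CArG box, the site of serum response factor, each on either strand.
FOS promoter: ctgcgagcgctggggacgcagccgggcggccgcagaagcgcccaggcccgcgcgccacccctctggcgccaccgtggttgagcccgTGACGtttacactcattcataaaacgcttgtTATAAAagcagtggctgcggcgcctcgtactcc
FOSB promoter: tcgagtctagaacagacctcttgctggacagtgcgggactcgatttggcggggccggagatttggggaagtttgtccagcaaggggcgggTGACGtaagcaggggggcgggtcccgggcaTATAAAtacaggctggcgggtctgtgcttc
EGR1 promoter: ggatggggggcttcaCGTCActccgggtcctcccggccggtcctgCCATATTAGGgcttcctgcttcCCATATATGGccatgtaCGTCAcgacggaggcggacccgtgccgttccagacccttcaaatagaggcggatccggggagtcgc
ATF3 promoter: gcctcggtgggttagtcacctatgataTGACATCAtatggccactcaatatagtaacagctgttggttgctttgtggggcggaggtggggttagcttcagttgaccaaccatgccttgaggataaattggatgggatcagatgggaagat
FOS and FOSB shared a layout, with TGACG beginning 64 and 60 bases before the start and TATAAA beginning 33 and 30 bases before it. EGR1 held 2 CArG boxes, beginning 105 and 83 bases before the start, and TGACG on the opposite strand at 135 and 66 bases.

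Motifs were searched on both strands in the 250 bases before the start of 10 RefSeq windows. The windows belong to 9 of the genes, ATF3 having 2, and FOSL1 was not among them. TGACG was present in 8 of the 10 windows and in 21.2% of all 35116 windows of that length. TATAAA was present in 4 of the 10 (FOS, FOSB, JUNB and, 230 bases before it, the downstream ATF3 start) and in 10.7% of all. The CArG box was found in EGR1 alone among them and in 1.16% of all, and TGACATCA in JUN and ATF3 and in 2.37% of all. Bases farther upstream than 250 were not searched, so a motif missing from a window may still lie near that gene. TTCNNNGAA, the GAS (gamma-activated site) motif, was found in EGR1 alone among the 10 windows and in 6.57% of all. The full CRE, TGACGTCA, which contains TGACG on both strands, was found in JUND alone among them and in 1.65% of all. The AP-1 site TGANTCA was found in none of the 10 and in 6.57% of all. These matches describe letters in the windows and do not show binding.

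Total counts ranged from 46652288 to 72952859 per library. Of 8 osteoblast-lineage genes listed, SPARC, COL1A1 and VIM were at least at 627, 285 and 1241 CPM (counts scaled to library size) in every library. COL5A1 and RUNX2 were at least at 97.7 and 18.4 CPM. ALPL ranged from 0.99 to 22.5 CPM, POSTN did not exceed 4.63 CPM, and COL1A2 stayed below 1 CPM. Among leukocyte genes, CD68, a lysosomal protein of macrophages that other cells also express, reached the highest level. It ranged from 1.29 to 8.92 CPM in untreated and from 3.51 to 16.7 CPM in treated WT clones, and from 0.65 to 7.12 and from 1.24 to 10.9 CPM in KO clones, while PTPRC, CD3E, MS4A1, CD14 and LYZ stayed below 1 CPM in every library. The sum of 3 epithelial genes reached 13.8 CPM, of which EPCAM reached 12.7 CPM in untreated KO clones, and the sum of 3 endothelial genes reached 4.13 CPM. Their part in the values below was not tested. ZBTB48, the targeted gene (chromosome 1, 6579994 to 6589280), lay between 8.02 and 11.6 CPM in the WT libraries. It lay between 1.29 and 5.27 CPM in 8 libraries labelled KO, but at 11.3 CPM untreated and 15.8 CPM treated in KO replicate 3, above the WT clones of the same treatment. A transcript level does not show whether the protein is lost. By Western blot the paper describes CIITA, HLA-DMB and CD74 protein as low or not detected in all 5 of its IFNγ-treated U2OS KO clones. The treated and untreated libraries of a clone deviated together from their groups at Pearson's r of 0.70 to 0.89 over genes, except for KO replicates 4 and 5, at -0.02 and 0.04. Untreated KO replicate 4 was most like treated KO replicate 5 (r = 0.75), and untreated KO replicate 5 most like treated KO replicate 4 (r = 0.83). Responses by clone for these 2 numbers are therefore doubtful. For FOS, FOSB, FOSL1 and ATF3 the mean of KO replicates 1 to 3 is given as well. Other responses by KO clone include the doubtful pairs unless stated, and group values do not depend on the pairing within KO. Genes are not independent replicates in these correlations. In bulk libraries, fewer cells holding a transcript and less of it per cell cannot be told apart.

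Per length of transcript, as RPKM, EGR1 was the highest of the 10 genes in untreated WT clones, at 489 ± 127 RPKM (SD, n = 5), and FOS followed at 350.1 ± 99.9 RPKM. IER2, JUN, JUND and JUNB came next at means of 158, 136, 100.2 and 91.3 RPKM. FOSL2, FOSB, FOSL1 and ATF3 closed the order at 46.6, 42.5, 20.2 and 12.5 RPKM. Neighbours in this order overlapped between libraries, with the exception of JUNB and FOSL2. The untreated KO clones gave the same order. After IFNγ, FOS moved from the second place to the eighth in WT clones, at 43.7 ± 23.5 RPKM, and FOSB to the last, at 3.21 ± 1.86 RPKM, where it did not overlap with its neighbour ATF3.

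Among the FOS family, FOS and FOSB were lower after IFNγ and FOSL1 and FOSL2 higher, in every clone. FOS (chromosome 14, 75278828 to 75282230) encodes the prototype partner of JUN. In untreated WT replicates 1 to 5 it stood at 618, 834, 836, 962 and 433 CPM, and after IFNγ at 46.3, 112, 166, 86.4 and 49.8 CPM. The untreated libraries labelled KO held 736, 616, 269.8, 362 and 1025 CPM, and the treated ones 73.1, 131, 80.8, 161 and 158 CPM. The lowest untreated library thus lay above the highest treated library in both genotypes, with WT replicate 5 and KO replicates 3 and 4 low among the untreated. The fitted difference was 7.94-fold in WT clones (log2 fold change -2.99, SE 0.37) and 4.98-fold in KO clones (-2.32, SE 0.38).

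FOSB (chromosome 19, 45467996 to 45475179), which shares the FOS promoter layout printed above, had the widest difference. It stood at 273, 164, 137, 158 and 70.2 CPM in untreated WT replicates 1 to 5, and at 9.48, 18, 20.8, 8.23 and 4.13 CPM after IFNγ. Libraries labelled KO held 284, 60.3, 40.9, 45.4 and 241 CPM untreated and 12.4, 10.9, 16.7, 16.2 and 32.6 CPM treated. The groups did not overlap in either genotype, but untreated KO replicates 1 and 5 stood far above KO replicates 2, 3 and 4. The log2 fold change was -3.72 (SE 0.47), or 13.2-fold, in WT clones and -2.92 (SE 0.61), or 7.57-fold, in KO clones.

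FOSL1 and FOSL2 encode FOS-like proteins that lack the strong activation domain of FOS. FOSL1 (chromosome 11, 65892049 to 65900545) stood at 46.3, 38.7, 56.6, 21.3 and 24.8 CPM in untreated WT replicates 1 to 5 and at 153, 83.7, 132, 102 and 53.3 CPM after IFNγ. In KO libraries it went from 54.1, 19.2, 44.9, 33.3 and 25.3 CPM to 167, 28.9, 192, 57.3 and 79.7 CPM. Every clone was higher after treatment, although the groups overlapped in both genotypes. The log2 fold change was 1.5 (SE 0.32) in WT and 1.57 (SE 0.48) in KO clones. FOSL2 (chromosome 2, 28392858 to 28417317) ranged from 263 to 374 CPM untreated and from 346 to 669 CPM treated in WT clones, and from 257 to 324 CPM and from 410.3 to 534 CPM in KO clones. Its log2 fold change was 0.57 (SE 0.17) in WT and 0.75 (SE 0.11) in KO clones, and in KO clones the groups did not overlap.

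The make-up of the FOS-family transcripts differed accordingly. The summed level of the 4 genes was 459 ± 106 RPKM (SD, n = 5) in untreated and 172 ± 32.6 RPKM in treated WT clones, with no overlap. In KO clones it was 382 ± 169.9 RPKM untreated and 188 ± 20.9 RPKM treated, and untreated KO replicate 3, at 203 RPKM, lay within the treated range. FOS made up 75.4% ± 5.8 of the sum in untreated WT clones and 24.6% ± 10.0 after IFNγ, and in KO clones 73.2% ± 7.2 and 31.4% ± 12.5. FOSL1 and FOSL2 together supplied the rest of the treated sum almost entirely, at 32.5% and 41.1% in WT clones and 28.7% and 37.5% in KO clones. FOSB made up 9.26% and 8.09% untreated and 1.80% and 2.49% treated, in WT and KO clones respectively.

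**Figure D1:**
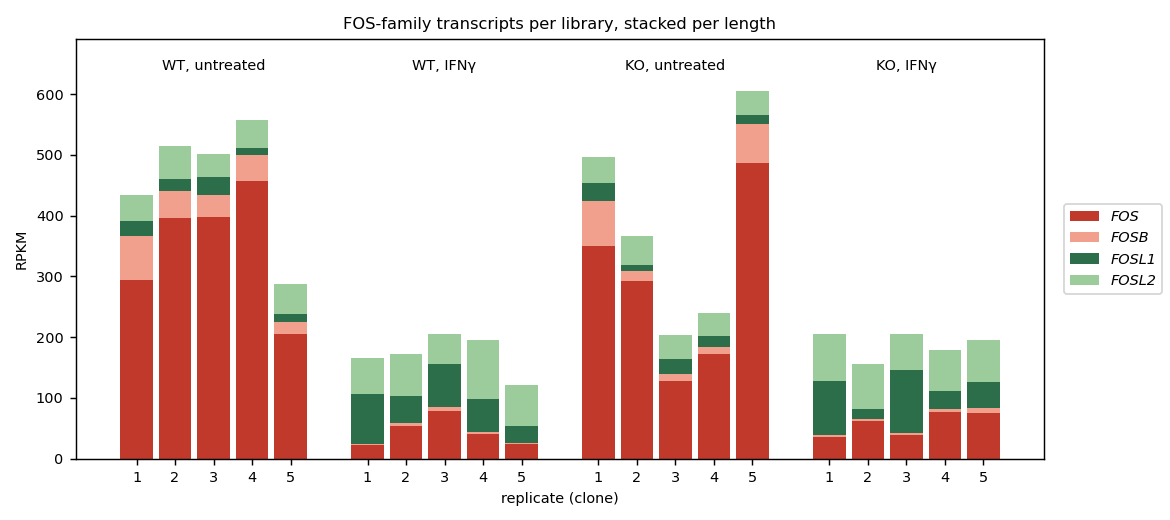
FOS-family transcripts in each library, in RPKM, stacked by gene, with replicates 1 to 5 of the 4 groups along the horizontal axis. FOS fills most of the untreated bars, from 63.2% to 81.9% of the sum, and at most 42.8% of a treated bar.

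The JUN family differed far less. JUN (chromosome 1, 58780791 to 58784047), JUNB (chromosome 19, 12791486 to 12793315) and JUND (chromosome 19, 18279694 to 18281622) encode partners of the FOS proteins. JUN ranged from 365 to 535 CPM in untreated and from 319.9 to 593 CPM in treated WT clones, a log2 fold change of 0.086 (SE 0.18). JUNB ranged from 134 to 244 CPM and from 131 to 170.3 CPM, with a log2 fold change of -0.19 (SE 0.17). JUND ranged from 165 to 243 CPM and from 156 to 308 CPM, with a log2 fold change of 0.088 (SE 0.19). In KO clones the same values were 0.084 (SE 0.18), -0.15 (SE 0.30) and 0.087 (SE 0.18). The exons of JUNB overlap those of HOOK2 on the opposite strand, and the strand setting of the counting is not given in the sources used here, so reads of the overlap could belong to either gene. The summed JUN family was at 327 ± 52.5 RPKM untreated and 327 ± 55.9 RPKM treated in WT clones, and at 331 ± 63.4 and 337 ± 46.2 RPKM in KO clones. The ratio of the FOS-family sum to the JUN-family sum was 1.41 ± 0.33 untreated and 0.54 ± 0.15 treated in WT clones, and 1.11 ± 0.31 and 0.57 ± 0.12 in KO clones.

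Of the other immediate-early genes, ATF3 was higher after IFNγ, EGR1 modestly lower in WT clones and IER2 near level. ATF3 (chromosome 1, 212565407 to 212620777) encodes a stress-induced bZIP protein that can pair with JUN proteins. It stood at 44.1, 35.5, 31.4, 40.0 and 30.5 CPM in untreated WT replicates 1 to 5 and at 159, 98.7, 76.7, 201 and 97.3 CPM after IFNγ. KO libraries held 86.7, 64.2, 33.4, 17.7 and 57.1 CPM untreated and 287, 207, 223, 117 and 117 CPM treated. The groups did not overlap in either genotype, and the untreated WT clones were closer together than the untreated KO clones. The log2 fold change was 1.82 (SE 0.26), or 3.52-fold, in WT and 1.87 (SE 0.41), or 3.66-fold, in KO clones.

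EGR1 (chromosome 5, 138465479 to 138469303), a zinc finger factor and a classical target of serum response factor, stood at 1197, 1895, 1986, 1482 and 1110 CPM in untreated WT replicates 1 to 5. After IFNγ it stood at 864, 1289, 1189, 1047 and 937 CPM, lower in each of the 5 clones although the groups overlapped (log2 fold change -0.51, SE 0.18). Untreated KO libraries held 1165, 1231, 829.8, 794 and 2593 CPM and treated ones 777, 543, 1189, 1374 and 1189 CPM, so KO replicate 5 was far above the other untreated libraries (-0.38, SE 0.35). IER2 (chromosome 19, 13150411 to 13154911), an immediate-early transcriptional regulator, ranged from 264 to 455 CPM untreated and from 329 to 405 CPM treated in WT clones. Its log2 fold change was 0.092 (SE 0.14) in WT and 0.052 (SE 0.21) in KO clones.

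**Figure D2:**
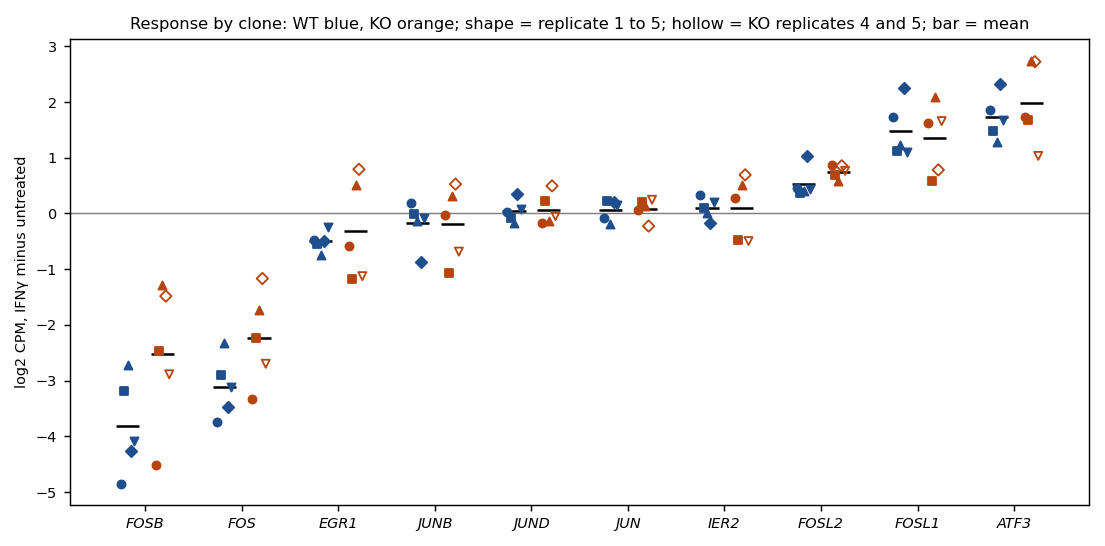
Response of each clone, as log2 CPM after IFNγ minus log2 CPM untreated, with WT clones in blue, KO clones in orange, a shape for each replicate number and bars for the means. FOSB and FOS lie below 0 and FOSL2, FOSL1 and ATF3 above 0 in all 10 clones, and hollow points are KO replicates 4 and 5, whose pairing is doubtful.

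A gene was called where edgeR's adjusted p was under 0.01 and the difference over 2-fold. By this rule 3 of the 10 genes were called in WT clones (FOS and FOSB lower, ATF3 higher), beside 3% of the 19522 genes tested, 2.48% called higher and 0.512% called lower. In KO clones 1 of the 10 was called (FOS, lower), beside 1.96% of 19385 genes, 1.7% higher and 0.258% lower. The groups did not overlap for 3 of the 10 in WT clones, beside 11.1% of all genes tested, and for 4 of the 10 in KO clones, beside 9.55%. Since the genes were selected on this contrast, nothing is read from these counts. The median log2 fold change of the 10 genes was 0.087 in WT and 0.068 in KO clones, beside -0.030 and -0.032 over all genes tested. With the clone as a replicate block FOSL1 was called too in WT clones, and ATF3, FOS and FOSL1 in KO clones, while the genes called in all went from 585 to 1414 and from 379 to 721. Without KO replicates 4 and 5, an alternative added after seeing the data, 0 of the 10 were called in KO clones, where 22 genes were called in all. With those 2 clones left out of the block fit, ATF3 alone of the 10 was called, among 306 genes in all.

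By clone, FOS was lower after IFNγ by a mean log2 difference of -3.11 ± 0.54 (SD, n = 5) in WT clones and -2.23 ± 0.84 in KO clones, or -2.43 ± 0.82 (n = 3) in KO replicates 1 to 3. FOSB gave -3.82 ± 0.86 in WT clones, -2.53 ± 1.30 in KO clones and -2.76 ± 1.63 in KO replicates 1 to 3. ATF3 gave 1.72 ± 0.40, 1.98 ± 0.74 and 2.05 ± 0.60 in the same order. FOSL1 gave 1.48 ± 0.50, 1.35 ± 0.64 and 1.44 ± 0.77. For each of the 10 genes the responses of WT and KO clones overlapped, and their difference was not tested. For FOSL2 the overlap rested on WT replicate 4, at 1.02. WT replicates 1, 2, 3 and 5 gave 0.448, 0.358, 0.397 and 0.435 for FOSL2, and KO clones ranged from 0.577 to 0.868. JUN, JUNB, JUND and IER2 moved in both directions among WT clones, as did JUNB, JUND and IER2 among KO replicates 1 to 3, where JUN was higher in all 3. EGR1 was lower in 5 of 5 WT clones and in 3 of 5 KO clones, KO replicates 3 and 4 being higher after treatment. That KO count includes the doubtful pairs of KO replicates 4 and 5.

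WT and KO clones were then compared within each treatment, which asks whether loss of ZBTB48 shifts these genes. No difference passed the test. With edgeR 0 of the 10 genes were called in untreated cells and 0 in treated cells, 0 had an unadjusted p under 0.05 in either, and DESeq2 called 0 in either. Over all genes 0.0154% were called untreated and 0.0155% treated, 3 genes each. The 2 genotypes overlapped for all 10 genes, beside 1% of genes without overlap untreated and 0.805% treated. The median log2 fold change of the 10 genes, WT minus KO, was 0.055 untreated and -0.024 treated, beside -0.0017 and -0.016 over all genes tested. Without KO replicate 3 the untreated median was -0.022.

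ATF3 had the largest of these differences in both conditions, with lower means in WT clones. It was at 36.3 ± 5.8 CPM (SD, n = 5) in WT and 51.8 ± 26.9 CPM in KO clones untreated, a log2 fold change of -0.52 (SE 0.34, edgeR adjusted p = 0.98; two-sided exact permutation p = 0.468). After IFNγ it was at 127 ± 51.6 and 190.1 ± 73.2 CPM, a log2 fold change of -0.58 (SE 0.31, edgeR adjusted p = 0.996; exact permutation p = 0.151). KO replicate 4, the lowest untreated library, and KO replicate 1, the highest, spanned 17.7 to 86.7 CPM. Without KO replicate 3, whose ZBTB48 transcript level lay above the WT clones, the log2 fold change of ATF3 was -0.64 untreated and -0.52 treated. Without KO replicate 1 it was -0.25 and -0.39.

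FOS differed between the genotypes by 0.28 (SE 0.34, edgeR adjusted p = 0.99; exact permutation p = 0.349) untreated and by -0.40 (SE 0.36, edgeR adjusted p = 0.996; exact permutation p = 0.278) after IFNγ. The 95% interval of the difference was -0.50 to 1.06 untreated and -1.24 to 0.44 treated, so a 2-fold difference lay within it in each condition. Leaving out single clones moved it from 0.095 to 0.56 untreated and from -0.72 to -0.22 treated. FOSB gave 0.25 (SE 0.57) and -0.55 (SE 0.43), with exact permutation p = 0.397 and 0.230. FOSL2 was measured more tightly, at 0.17 (95% interval -0.095 to 0.43) untreated and -0.021 (-0.40 to 0.36) treated. For JUN the intervals were -0.41 to 0.37 and -0.47 to 0.41, and for IER2 -0.55 to 0.46 and -0.31 to 0.27, all inside 2-fold. Over the 20 single comparisons the smallest exact permutation p was 0.143, for FOSL2 in untreated cells, where 5 against 5 libraries allow 0.00794 at the lowest.

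**Figure D3:**
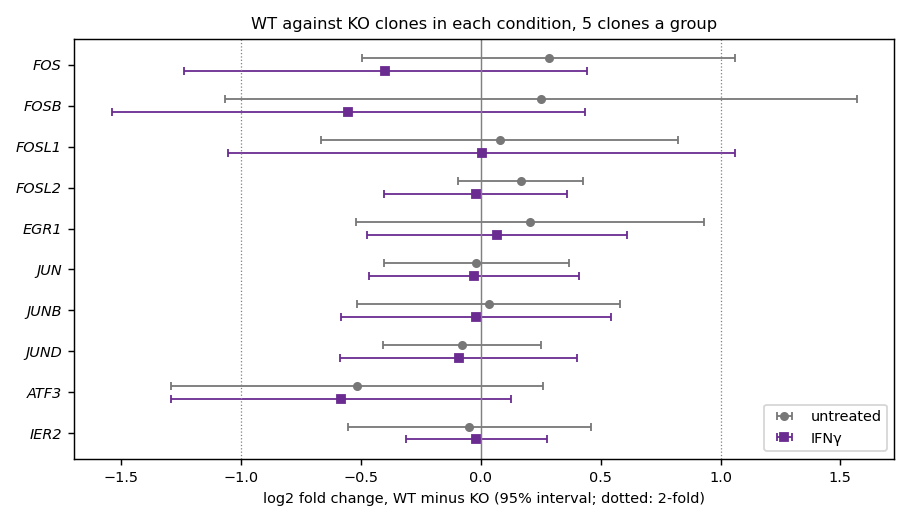
Log2 fold change of each gene, WT minus KO, in untreated (grey circles) and IFNγ-treated cells (purple squares), with 5 clones a group. The 95% intervals use a standard error derived from edgeR's F statistic. All 20 intervals include 0, and dotted lines mark 2-fold.

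The spread between clones of one group was wide for some of the genes and ordinary for others. The within-group SD of log2 CPM was 0.95 for FOSB, 0.77 for FOSL1, 0.66 for FOS, 0.62 for ATF3 and 0.49 for EGR1. JUNB had 0.44, JUND and JUN 0.31, IER2 0.30 and FOSL2 0.22. The median of 8401 genes with a mean of at least 20 CPM was 0.26, and 98.0% of those genes had less spread than FOSB and 95.2% less than FOS. JUN, JUND and IER2 were nearer the middle, with 63.4%, 63.5% and 61.6% of genes below them, and FOSL2 had less spread than the median gene, with 35.9% below it. In untreated KO clones part of the spread was shared between genes, in replicates 3, 4 and 5 but not in replicates 1 and 2. KO replicate 5 lay above its group mean by log2 0.93 for FOS, 1.35 for FOSB, 1.12 for EGR1, 0.77 for JUNB and 0.57 for IER2. KO replicate 3 lay below it by log2 values of -1.0, -1.21, -0.53, -0.38 and -0.54 for the same genes. KO replicate 4 lay below it too, at -0.57, -1.06, -0.59, -0.19 and -0.25. KO replicate 1 differed between these genes, at 0.45, 1.58, -0.038, 0.066 and -0.19. So did KO replicate 2, at 0.19, -0.65, 0.041, -0.26 and 0.42. WT replicate 5 was low in FOS and FOSB both untreated (-0.71 and -1.06) and treated (-0.72 and -1.33). FOSL1 went its own way, being 1.19 above the mean in treated KO replicate 3 and 1.54 below it (-1.54) in treated KO replicate 2.

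Other genes were ranked by their likeness to the mean of the 10. This mean joins genes lower after IFNγ, such as FOS and FOSB, with genes higher after it, such as ATF3 and FOSL1. It is therefore not a pattern that all 10 share. Among 15108 other genes with a mean of at least 1 CPM, those most like the mean of the 10 standardised log2 CPM values over 20 libraries were TRIM2, EMSY, SCLT1, DENND1B and EGR2, with Pearson's r of 0.65, 0.64, 0.64, 0.63 and 0.63. EGR2 is a relative of EGR1. Without the 2 libraries farthest from the median these values were 0.59, 0.65, 0.37, 0.57 and 0.65, so that of SCLT1 rested on them. With group means taken off they were SUSD6, TMPRSS3, LINC01239, AASDH and ID4, at 0.77, 0.74, 0.73, 0.72 and 0.72, and at 0.70, 0.72, 0.64, 0.56 and 0.62 without the 2 farthest. The libraries share clones, and the values describe likeness only.

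Other genes of the pathway were taken from lists that were written with earlier results of these data known, and are described by counts. Over all genes tested with treatment, edgeR called 3% in WT and 1.96% in KO clones, and DESeq2 called 976 and 825 genes. The unadjusted p of edgeR was under 0.05 for 4868 of 19522 genes in WT clones and 4548 of 19385 in KO clones. Of 25 other bZIP genes tested, 8 in WT clones and 5 in KO clones were called higher with treatment, and 0 were called lower in either, where edgeR's unadjusted p was under 0.05 for 14 and 15 in either direction and DESeq2 called 9 and 9. BATF2, an interferon-induced AP-1 family member, went from 0.54 ± 0.31 to 265 ± 39.7 CPM in WT clones and from 0.66 ± 0.53 to 216 ± 65.7 CPM in KO clones (SD, n = 5). CEBPB, a factor of inflammation, went from 63.9 ± 23.3 to 235 ± 76.8 CPM in WT and from 64.4 ± 14.6 to 253 ± 26.0 CPM in KO clones. DDIT3, a stress-response factor that pairs with C/EBP proteins, had log2 fold changes of 2.13 (SE 0.26) and 2.24 (SE 0.24). The median log2 fold change of the 25 genes was 0.54 in WT and 0.51 in KO clones.

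Of 47 other immediate-early genes, 6 were called higher and 3 lower in WT clones, and 3 higher and 1 lower in KO clones, with medians of 0.27 and 0.26. Over all genes tested 2.48% were called higher and 0.512% lower in WT clones, and 1.7% and 0.258% in KO clones. BTG1, an antiproliferative gene, was higher in both, by log2 2.0 (SE 0.16) and 1.99 (SE 0.28). PTGS2, the inducible cyclooxygenase, and MYC were called higher in WT clones, by 1.92 (SE 0.38) and 1.74 (SE 0.23). IL6 and GADD45A were called higher in KO clones, by 2.02 (SE 0.38) and 1.59 (SE 0.24). IL6 was low in KO clones, at a mean of 0.55 CPM untreated and 2.26 CPM treated. Of the 6 genes called higher in WT clones, only the 3 with the greatest fold change are named. The names therefore do not show whether IL6 or GADD45A was called in WT clones too. BTG2, a relative of BTG1, was lower in both, by -1.14 (SE 0.11) and -1.36 (SE 0.24), and ID1 and SGK1 were called lower in WT clones, by -1.17 (SE 0.15) and -1.16 (SE 0.22). Whether these responses differ between WT and KO clones was not tested. The immediate-early genes did not share a direction, inside or outside the 10.

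Of 30 genes of the ERK and serum response factor inputs, edgeR called 0 in WT and 0 in KO clones, with an unadjusted p under 0.05 for 5 and 8 and 0 DESeq2 calls in either. Over all genes tested 3% and 1.96% were called, and the unadjusted p was under 0.05 for 4868 of 19522 and 4548 of 19385. Beside those shares nothing is read from the counts of these genes, or of the ERK feedback genes that follow. Of the ERK feedback genes, ETV5 was called higher in WT clones (1.44, SE 0.18), 1 of 14 tested, and edgeR called 0 of 16 in KO clones, where 5 had an unadjusted p under 0.05 and DESeq2 called 1. Of 25 genes known as AP-1 targets, edgeR called 4 higher in WT clones and 1 in KO clones, whereas DESeq2 called 7 and 6 and the unadjusted p was under 0.05 for 12 in each. EREG, an EGF-family ligand, went from 17.6 ± 6.0 to 125 ± 60.2 CPM in WT clones. IL11, a cytokine, had a log2 fold change of 1.54 (SE 0.24) in WT clones. UPP1, uridine phosphorylase, had 1.87 (SE 0.27) in WT and 2.04 (SE 0.38) in KO clones. Between genotypes edgeR and DESeq2 called 0 of the AP-1 targets, with an unadjusted p under 0.05 for 2 of 26 untreated and 3 of 25 treated. Over all genes tested it was under 0.05 for 935 of 19505 untreated and 843 of 19383 treated. The median log2 fold change of the AP-1 targets, WT minus KO, was 0.14 and 0.26, beside -0.0017 and -0.016 over all genes tested. These genes were measured in the same clones and are not independent, and a shift of the list as a whole was not tested.

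Some heat-shock genes were lower alongside FOS and FOSB. Of 18 tested, 3 were called lower after IFNγ in WT and 3 in KO clones, beside 0.512% and 0.258% of all genes tested. HSPA1A, the inducible HSP70, ranged from 41.0 to 49.7 CPM untreated and from 3.23 to 9.13 CPM treated in WT clones, and from 30.5 to 45.6 and from 1.4 to 4.51 CPM in KO clones. HSPA1B, a near-identical copy whose reads may be divided uncertainly, had log2 fold changes of -2.50 (SE 0.24) and -2.86 (SE 0.20), and HSPA8, the constitutive HSP70, -1.41 (SE 0.19) and -1.80 (SE 0.10). The summed level of the 18 genes ranged from 8044 to 9753 CPM untreated and from 5946 to 7296 CPM treated. Their part in the AP-1 values was not tested.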

How the data were processed

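RNA of 5 WT and 5 ZBTB48 KO clones of U2OS, untreated or given IFNγ, was sequenced as 20 polyA libraries. The authors deposited raw counts per RefSeq gene, made with STAR 2.7.9a and featureCounts 2.4.0 on GRCh38 from uniquely mapped reads, without normalization. Reads of overlapping or near-identical genes can be lost or misplaced by such counting. All 20 columns were matched to labels. CPM and RPKM were computed after TMM scaling, with a prior count of 0.5 on log2 scales. Only the 10 libraries of a comparison entered its fit, made by edgeR 4.0.16 (quasi-likelihood, robust, filterByExpr) in R 4.3.3, with Benjamini-Hochberg adjustment over all genes tested. The study's methods name DESeq2, run here as an alternative (1.42.0). Scripts were tested on simulated counts. Labels tie treated and untreated libraries to the same clone, and deviations of same-numbered pairs correlated except in KO replicates 4 and 5, whereas WT and KO numbers name different clones (r from -0.27 to 0.22). Each SE of an edgeR fold change was derived as its absolute log2 value over the square root of edgeR's F statistic. Intervals took 8 degrees of freedom, whereas edgeR's own test moderates them, so intervals and edgeR p-values do not match exactly. Genes, lists and tests were chosen with earlier results of these data known. The genes named outside the 10 were at most 3 called higher and 3 called lower per list and comparison, those with the greatest fold change, 5 by likeness on each of the 2 scales, and ZBTB48. Marker genes were named after their values were seen. P-values measure the spread between clones of this line.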

Additional observations from a re-analysis of the deposited data

Results flagged for a closer look

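In 60 groups of 5 values, the levels of the 10 genes in 4 groups and their responses in WT and in KO clones, 3 held a value set apart from the other 4, where chance at about 1 in 20 groups gives 3. The FOSL2 response of WT replicate 4, at a log2 difference of 1.02, was set apart by a gap of 0.864 of the range of the 5 clones. JUNB in treated KO replicate 2, at 62.0 CPM, lay below the other treated KO libraries by a gap of 0.760 of the log2 range. IER2 in treated KO replicate 4, at 447 CPM, lay above the others by a gap of 0.717 of the log2 range.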

How the results depend on the processing

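In WT clones, FOS, FOSB and ATF3 were called under every alternative run, and FOSL1 was called as well under the replicate block, DESeq2 with and without shrinkage, and an adjusted p under 0.05 with no fold limit. Over all genes the replicate block called 1414 in WT clones, DESeq2 976 and DESeq2 shrunken 687, beside 585. No count over all genes is given for an adjusted p under 0.05 with no fold limit. Nothing is therefore read from the members called under it, in WT or KO clones. In KO clones the number called went from 1 to 3 with all 20 libraries fitted together, 3 under the replicate block, 3 with DESeq2 shrunken, 4 with DESeq2 and 4 with an adjusted p under 0.05, and to 0 without KO replicates 4 and 5. Over all genes those settings called 642, 721, 616 and 825 (for DESeq2 unshrunken), and 22 without the 2 clones, beside 379, so the number called moved for genes in general. For the 10 genes it was 0 without any single KO replicate (0 to 0), where FOS kept log2 fold changes from -2.58 to -2.07. The genes called in all then numbered from 131 to 490. The 490 came without KO replicate 2, above the 379, so there the 10 genes and all genes moved in opposite directions. Between WT and KO, 0 of the 10 were called under every alternative, prior count 2 left 0 with an exact p under 0.05, and the replicate block, whose numbers name different clones there, gave medians of 0.072 untreated and -0.039 treated and JUNB at 0.056 treated. When single clones were left out, the untreated median ranged from -0.022 to 0.14, below 0 without KO replicate 3, and the treated one from -0.15 to -0.016. FOS, which kept its sign, is given above, EGR1 untreated ranged from 0.069 to 0.60 and FOSB treated from -0.84 to -0.21. Differences near 0 changed sign between clones left out. Untreated, the ranges were -0.037 to 0.72 for FOSB, -0.12 to 0.28 for FOSL1, -0.13 to 0.054 for JUN, -0.14 to 0.28 for JUNB and -0.19 to 0.11 for IER2. Treated, they were -0.24 to 0.33 for FOSL1, -0.17 to 0.073 for FOSL2, -0.13 to 0.080 for JUN, -0.21 to 0.11 for JUNB, -0.29 to 0.0096 for JUND, -0.088 to 0.20 for EGR1 and -0.071 to 0.078 for IER2. FOSL1 treated was -1.3e-05 with DESeq2's size factors, -0.0024 with library totals, -0.0025 with all 20 libraries, -0.00011 with DESeq2 and -3.8e-05 with DESeq2 shrunken. The causes were not tested. The lowest count of any of the 10 genes in a library was 220, for FOSB. The parts of depth and of the spread between clones in these values were not tested.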

Other observations

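FOS and ATF3 were also ranked singly against 15117 other genes over the 20 libraries, a step chosen after seeing the data. The gene most like FOS was FOSB (Pearson's r = 0.95, Spearman's rho = 0.92), on a scale that holds the treatment difference on which the genes were chosen. With group means taken off, r between them was 0.73, and LOC408186 (0.84) and TRAPPC9 (0.82) were most like FOS. The gene most like ATF3 was ZCCHC8, a component of the nuclear exosome targeting complex, on both scales. Its r with ATF3 was 0.98 (rho 0.97) over the 20 libraries and 0.93 (rho 0.92) with group means taken off, and 0.97 and 0.90 without the 2 libraries farthest from the median of ATF3. ZCCHC8 was at 21.9 ± 1.2 CPM (SD, n = 5) in untreated and 41.5 ± 7.8 CPM in treated WT clones, and at 22.7 ± 5.6 and 52.4 ± 15.4 CPM in KO clones. In untreated KO replicates 1 to 5 it stood at 28.0, 27.7, 21.0, 14.3 and 22.7 CPM, with replicate 4 lowest and replicate 1 highest, as for ATF3. These likenesses are the highest of many, libraries share clones, and no test was made.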
